A study of Mus musculus with 12 samples.

Results

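The 9 genes described here encode the machinery that shows peptides to T cells. For class I they are the heavy chains H2-K1 and H2-D1, the light chain B2m and the peptide transporter subunit Tap1. For class II they are the chains H2-Aa, H2-Ab1 and H2-Eb1, the invariant chain Cd74 and the transactivator Ciita. They were chosen by name, as the rows of the deposited table whose NCBI gene identifier belongs to these symbols. All 9 were found among 22221 rows, and 7 of them were among the 15472 rows with enough signal for a test. H2-Eb1 and Ciita did not reach 1 FPKM in at least 3 libraries and are given as levels only, where FPKM stands for sequenced fragments corrected for the length of the transcript and the size of the library.

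The libraries were made from testis RNA of ICR mice, an outbred stock, with 3 libraries in each of 4 groups. Con was untreated. Sa, IMC and IMA10 all had a single dose of the alkylating agent busulfan, which is toxic to spermatogonia, at 3 weeks of age. Sa then received saline. In IMC the saline was replaced by gut microbiota of donor mice that had drunk only water (ddH2O). In IMA10 the donors had been given 10 mg/kg body weight of an oligosaccharide of alginate, spelled "Aligina Oligosaccharide" in the labels. The microbiota was given for 2 weeks and the testes were taken 3 weeks later. The age of the untreated mice is not stated, and the deposited description calls the tissue cultured while naming no culture step. The labels do not say that the libraries of a group came from separate mice, so p-values here measure the spread between these libraries, which may be partly technical.

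MHC class I molecules sit on nearly all nucleated cells as a heavy chain paired with B2m, and they carry peptides that the Tap1-Tap2 transporter moves into the endoplasmic reticulum. Class II molecules are pairs of an alpha and a beta chain, made mainly by macrophages, dendritic cells and B cells. Cd74 guards their groove until peptide is loaded, and Ciita switches on the class II genes. The testis is an immune-privileged organ: germ cells past meiosis carry little or no class I on their surface, and the interstitial macrophages are its main class II cells. The H2 genes are among the most variable genes between mice, so outbred animals carry different alleles of them. The labels give no haplotype, and the FPKM values do not distinguish alleles.

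Values from the whole table bear on every comparison. Markers of testis cells were present in every library: Clu (Sertoli cells), Insl3 (Leydig cells), Acta2 (peritubular myoid cells) and Prm1 (spermatids). Prm1 fell from 10300-11022 FPKM in the untreated libraries to 5.47-880 after busulfan, and the summed late germ cell markers were at 41178-43747 FPKM in the untreated and at 37.7-3745 FPKM in the busulfan libraries. IMA10 replicate 3 stood apart. Its log2(FPKM + 1) values correlated across genes at r = 0.606 and 0.705 with its own group and at 0.918-0.926 with the untreated libraries, and its late germ cell sum of 3745 FPKM was the highest of the 9 busulfan libraries. It is kept in the fits, and the members' differences in IMA10 are also given without it where it moved them most. In whole tissue, fewer cells of a type and less RNA per cell cannot be told apart. The columns of the untreated libraries carry a different name prefix in the table from the others, so a difference in handling and the lack of busulfan cannot be told apart.

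Genes of both classes are known to be controlled through short promoter boxes that they share. The sequences upstream of H2-K1, H2-D1, B2m and H2-Aa, which all rose in Sa, are therefore shown first. They are the 250 bases before the annotated start of each gene, 5' to 3' on the coding strand, from RefSeq on GRCm38.p6, with every match to 6 motifs in capitals on either strand. The motifs were GGGNNTTCCC (NF-kB-like), GAANNGAAA and GAAANNGAAA (interferon regulatory factor binding, with a spacing that differs by 1 base), TGACG (the core of a cAMP response element), GCAAC (the core of the X1 box bound by RFX) and GATTGG (the Y box bound by NF-Y). Capitals that run together are overlapping matches, as in the palindrome tgacgtca of H2-Aa, which holds TGACG on both strands.
H2-K1, chr17:34000348-34000597, minus strand: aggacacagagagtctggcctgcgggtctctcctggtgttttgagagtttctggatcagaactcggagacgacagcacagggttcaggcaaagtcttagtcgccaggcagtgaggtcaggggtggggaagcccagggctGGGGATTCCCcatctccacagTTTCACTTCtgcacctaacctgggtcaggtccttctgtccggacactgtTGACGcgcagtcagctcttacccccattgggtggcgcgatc
H2-D1, chr17:35262844-35263093, plus strand: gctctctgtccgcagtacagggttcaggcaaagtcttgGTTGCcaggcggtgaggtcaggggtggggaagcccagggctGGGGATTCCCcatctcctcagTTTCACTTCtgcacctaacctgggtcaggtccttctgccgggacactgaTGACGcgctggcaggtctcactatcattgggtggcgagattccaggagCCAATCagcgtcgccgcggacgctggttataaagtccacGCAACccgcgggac
B2m, chr2:122147437-122147686, plus strand: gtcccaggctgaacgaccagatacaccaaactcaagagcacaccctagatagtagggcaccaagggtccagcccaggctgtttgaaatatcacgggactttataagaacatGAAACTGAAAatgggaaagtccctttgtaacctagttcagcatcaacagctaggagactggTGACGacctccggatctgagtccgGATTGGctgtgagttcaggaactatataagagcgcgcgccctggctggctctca
H2-Aa, chr17:34287824-34288073, minus strand: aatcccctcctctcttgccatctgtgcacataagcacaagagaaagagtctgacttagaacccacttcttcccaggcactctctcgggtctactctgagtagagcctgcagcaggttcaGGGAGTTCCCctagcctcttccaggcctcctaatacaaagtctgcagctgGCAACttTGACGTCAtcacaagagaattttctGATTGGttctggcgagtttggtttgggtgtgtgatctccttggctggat

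H2-K1 and H2-D1 held the same pair of matches, GGGGATTCCC and then TTTCACTTC, the latter being GAANNGAAA on the other strand. They began 111 and 90 bases before the start in H2-K1 and 171 and 150 bases before it in H2-D1. B2m held GAAACTGAAA at 139 bases, the cAMP response core at 78 and the Y box at 54. H2-Aa held the class II order of boxes, with the X1 core at 81 bases, the cAMP response core at 74 and the Y box at 49, and also GGGAGTTCCC at 131. In the same window Tap1 held the cAMP response core, the X1 core and the Y box once each, and H2-Eb1 held the X1 core once and the Y box at 2 places. Of 27025 RefSeq promoters cut to the same length, 1.44% held GGGNNTTCCC, 6.34% GAANNGAAA, 3.04% GAAANNGAAA, 17.9% TGACG, 30.1% GCAAC and 15.1% GATTGG. A match describes letters only. For H2-K1 RefSeq gives 2 starts, of which the first listed was used. Promoters of H2-Ab1 and Cd74, which also rose in Sa, and of Ciita are not shown.

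Levels set the members apart before any comparison. In untreated testis B2m was the most abundant member in all 3 libraries, at 16.25-24.7 FPKM, followed by H2-K1 (8.99-19.9) and H2-D1 (13.0-17.7), whose ranges overlapped with each other and, for both, with that of B2m. Cd74 came next at 6.23-11.3, H2-Ab1 at 1.77-5.12 and H2-Aa at 2.16-2.75 overlapped, and Tap1 spread from 0.15 to 2.09. H2-Eb1 (0.47-0.70) and Ciita (0.01-0.02) were the lowest. FPKM is scaled by transcript length, which allows a rough comparison between genes. It does not correct for reads shared between H2 genes or for differences between alleles. After busulfan the 3 class I chains held the first 3 ranks in 8 of 9 libraries, H2-Aa exceeded H2-Ab1 in all 9, and the untreated order of these class II chains was the opposite in Con replicates 1 and 3.

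**Figure D1:**
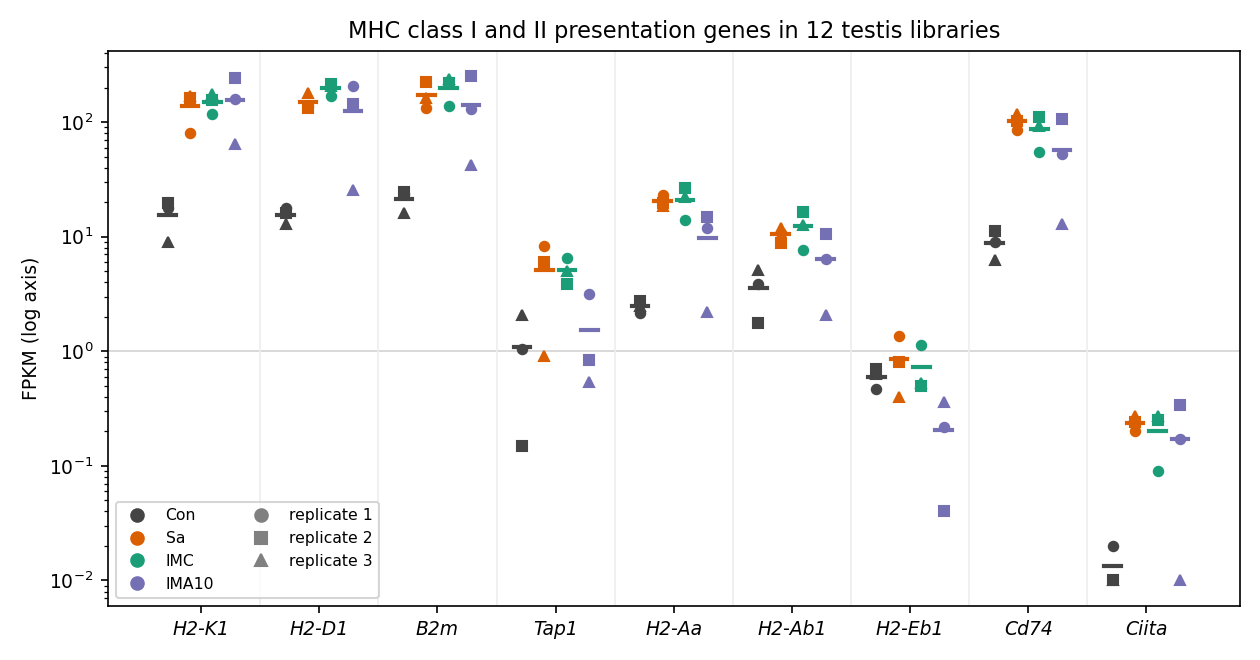
FPKM of the 9 genes on a log axis, by gene, with 1 point per library, colours for the 4 groups, shapes for the replicate number and a bar at each group mean. The untreated points (dark grey) lie below every Sa and IMC point for H2-K1, H2-D1, B2m, H2-Aa, H2-Ab1, Cd74 and Ciita, and IMA10 replicate 3 (purple triangle) is the lowest busulfan library for all of these 7 genes.

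The first comparison set busulfan followed by saline, without microbiota, against untreated testis. The class I chains H2-K1, H2-D1 and B2m, the class II chains H2-Aa and H2-Ab1 and the invariant chain Cd74 were several-fold higher in saline-treated busulfan testis than in untreated testis, with every Sa library above every Con library for 6 of the 7 tested genes. The fit was limma on log2(FPKM + 1) over all 12 libraries, with Benjamini-Hochberg adjustment over the 15472 genes tested and a call at an adjusted p under 0.05. By it 6 of 7 genes rose and none fell, where 52.0% of all genes rose and 19.2% fell. Their median difference was 2.95 against 0.60 over all genes tested, on the log2 scale. The 6 genes whose Sa libraries all lay above the untreated ones stand beside 56.9% of all genes that did so, and 31.3% lay below. Most of the table thus rose in this comparison, and the members' counts are to be read against that.

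The heavy chains H2-K1 and H2-D1 bind the peptide and face the T cell receptor. H2-K1 was at 17.95, 19.9 and 8.99 FPKM in Con replicates 1 to 3 and at 80.6, 163 and 168 FPKM in Sa. Even the lowest Sa library was well above the highest untreated one. Its difference was 3.05 ± 0.49 (log2, SE; 95% interval 1.97 to 4.13), a ratio of means of 8.79, with an adjusted p of 0.00044 by limma. H2-D1 was at 17.7, 16.1 and 13.0 FPKM in Con and at 139, 132 and 179 FPKM in Sa. The spread within each group was small beside the gap between them, and the difference was 3.18 ± 0.60 (limma adjusted p 0.000997, ratio of means 9.61). These heavy chains are close relatives of the other class I genes: 8.79% of the 50-base windows of the annotated H2-K1 transcript and 14.3% of those of H2-D1 occurred in another gene (GENCODE M21), so part of their reads could be assigned to a neighbour. B2m, Cd74, Ciita and the class II chains had no such window.

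B2m, the light chain that every class I heavy chain needs, was at 23.5, 24.7 and 16.25 FPKM in Con. In Sa it was at 134, 226 and 162 FPKM. All 3 Sa libraries were above all untreated ones, and the difference was 2.95 ± 0.53 (limma adjusted p 0.000783, ratio of means 8.11). B2m over the sum of H2-K1 and H2-D1 was 0.66-0.738 in Con and 0.468-0.765 in Sa, which overlapped. It was 0.481-0.625 in IMC and 0.356-0.656 in IMA10, below every untreated library. In IMA10 the margin was small, with replicate 2 at 0.656 beside 0.66 in Con replicate 1. How often other ratios of genes separate in this way was not computed.

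Tap1, the transporter subunit, had overlapping groups. It was at 1.05, 0.15 and 2.09 FPKM in Con and at 8.32, 6.06 and 0.91 FPKM in Sa. Sa replicate 3 lay inside the untreated range while the other 2 Sa libraries lay above it. The difference of 1.37 ± 0.61 (95% interval 0.02 to 2.72) did not pass in limma (adjusted p 0.0636). It passed with array weights (1.85, adjusted p 0.00151), without Sa replicate 3 (2.07, 0.00619), without Con replicate 3 (1.71, 0.0498) and without IMA10 replicate 1 (1.37, 0.0483), and was 0.90 (adjusted p 0.193) under median-of-ratios scaling. Its partner subunit Tap2 rose by 2.36 ± 0.53 (adjusted p 0.00265), with 0.54-1.15 FPKM in Con and 7.98-9.15 in Sa.

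Among the class II members, the invariant chain Cd74 was at 8.97, 11.3 and 6.23 FPKM in Con and at 85.1, 103 and 117 FPKM in Sa. This was the largest difference of the 7 tested members, 3.41 ± 0.61 (95% interval 2.05 to 4.76, limma adjusted p 0.000736, ratio of means 11.5). H2-Aa, the alpha chain of the I-A molecule, was at 2.16, 2.75 and 2.47 FPKM in Con and at 23.2, 19.6 and 18.5 FPKM in Sa. It had the tightest groups of the class II chains and rose by 2.63 ± 0.51 (limma adjusted p 0.00109, ratio of means 8.32). Its partner beta chain H2-Ab1 moved less. H2-Ab1 was at 3.84, 1.77 and 5.12 FPKM in Con and at 10.9, 8.85 and 11.9 FPKM in Sa, a difference of 1.40 ± 0.48 (limma adjusted p 0.0228, ratio of means 2.95). This call was lost without Con replicate 2 (1.08, adjusted p 0.0903), without Sa replicate 1 (1.38, 0.0549) and without Sa replicate 3 (1.32, 0.0654). H2-Aa over H2-Ab1 went from 0.482-1.55 in Con to 1.55-2.22 in Sa, with ranges that met at 1.55.

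The lowest members did not follow one pattern. H2-Eb1, the beta chain of the I-E molecule, was at 0.47, 0.70 and 0.63 FPKM in Con and at 1.35, 0.80 and 0.40 FPKM in Sa, and the groups overlapped (exact permutation p = 0.5, two-sided). Ciita was at 0.02, 0.01 and 0.01 FPKM in Con and at 0.20, 0.24 and 0.27 FPKM in Sa. All 3 Sa libraries were higher, as was so for 56.9% of the genes tested. The exact permutation p of 0.1 is the smallest that 3 libraries against 3 can give. Values this low rest on few fragments, whose number the files do not give. In a fit without the filter on low values, Ciita rose with an adjusted p of 0.0212 (limma), by 0.29 ± 0.09 on the log2(FPKM + 1) scale, which understates changes of low genes.

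How far these differences reach depends on the scaling of the libraries. Dividing each library by a median-of-ratios factor moved the median of all genes in Sa against Con from 0.60 to -0.02, and the split of all calls from 8052 higher and 2963 lower to 5847 higher and 6069 lower. Under it H2-K1 stood at 2.28, H2-D1 at 2.41, B2m at 2.17, H2-Aa at 1.97 and Cd74 at 2.65, all past the threshold in limma. H2-Ab1 fell to 0.73 with an adjusted p of 0.161. The direction of all 7 members was the same under both scalings.

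The same comparison for the microbiota groups shares the untreated libraries with the first, so the results are not independent of it. In IMC all 7 tested genes rose and none fell, where 50.8% of all genes rose and 23.3% fell, and the median difference was 3.13 against 0.52 over all genes. All 7 also lay above every untreated library, which 55.1% of genes did (33.2% lay below). H2-K1 was at 118, 155 and 175 FPKM in the 3 IMC libraries, 3.23 ± 0.49 above Con (log2). H2-D1 was at 169, 217 and 208 FPKM and B2m at 138, 218 and 239.6 FPKM, with differences of 3.58 ± 0.60 and 3.13 ± 0.53. The adjusted p-values of these 3 class I chains were 0.000334, 0.000506 and 0.00054 (limma).

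Tap1 was more even in IMC than in Sa, at 6.55, 3.86 and 5.04 FPKM, and the difference of 1.64 ± 0.61 passed (limma adjusted p 0.0316). That call was lost without Con replicate 1 (adjusted p 0.0632), Con replicate 2 (0.113), IMC replicate 1 (0.0858) or IMC replicate 3 (0.07), and under median-of-ratios scaling (1.22, adjusted p 0.0868). Among class II genes, Cd74 was at 55.1, 111 and 93.3 FPKM and H2-Aa at 14.0, 26.4 and 22.1 FPKM in IMC. They rose by 3.13 ± 0.61 and 2.62 ± 0.51 (limma adjusted p 0.00113 and 0.00109). IMC replicate 1 was the lowest of its group for both. H2-Ab1, at 7.68, 16.6 and 12.7 FPKM, rose by 1.56 ± 0.48 (limma adjusted p 0.0137). Its call was lost without Con replicate 2 (1.23, adjusted p 0.0582), without IMC replicate 2 (1.33, 0.0515) and under median-of-ratios scaling (0.95, 0.0757).

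In IMA10, 5 of 7 genes rose (6 without IMA10 replicate 3, 4 under median-of-ratios scaling) and none fell, where 47.7% of all genes rose and 23.9% fell, and the median difference was 2.17 against 0.41 over all genes. H2-K1, H2-D1, B2m and Cd74 lay above every untreated library, as 49.3% of genes did. H2-K1 was at 159, 242 and 64.65 FPKM in IMA10 replicates 1 to 3, H2-D1 at 207, 144 and 25.4 FPKM, and B2m at 130.2, 253 and 42.6 FPKM. Replicate 3 was the lowest for all 3 class I chains, by a factor that differed between them. The differences were 3.11 ± 0.49, 2.49 ± 0.60 and 2.35 ± 0.53 (limma adjusted p 0.000949, 0.00474 and 0.00339), and 3.64, 3.39 and 3.04 without that library.

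The class II members were also low in IMA10 replicate 3. Cd74 was at 52.9, 106.5 and 12.9 FPKM and H2-Aa at 11.9, 15.0 and 2.19 FPKM, so that for H2-Aa replicate 3 lay inside the untreated range. Cd74 rose by 2.17 ± 0.61 (limma adjusted p 0.00989), and by 2.99 without that library. H2-Aa rose by 1.33 ± 0.51 (adjusted p 0.0369), and by 2.05 (adjusted p 1.34e-05) without it. This call on H2-Aa was lost without any of Con replicates 1 to 3 (adjusted p 0.0888, 0.0681 and 0.078), Sa replicate 2 (0.0505), or IMA10 replicate 1 or 2 (0.125 and 0.148), and under median-of-ratios scaling (0.87, adjusted p 0.108). H2-Ab1 was at 6.44, 10.6 and 2.06 FPKM, a difference of 0.56 ± 0.48 that did not pass (limma adjusted p 0.301), and it rose by 1.10 (adjusted p 0.0183) without replicate 3.

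Tap1 did not differ detectably from untreated testis in IMA10. It was at 3.17, 0.84 and 0.54 FPKM, a difference of 0.23 ± 0.61 (95% interval -1.11 to 1.58, limma adjusted p 0.737). Without replicate 3 it was 0.51 (adjusted p 0.477). H2-Eb1 was lower in IMA10 than in Con without overlap, at 0.22, 0.04 and 0.36 FPKM (exact permutation p = 0.1, two-sided, the smallest possible), which 18.1% of the genes tested were. In a fit without the filter its difference was -0.41 ± 0.20 (limma adjusted p 0.0992). Ciita was at 0.17, 0.34 and 0.01 FPKM in IMA10, with replicate 3 at the untreated level.

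**Figure D2:**
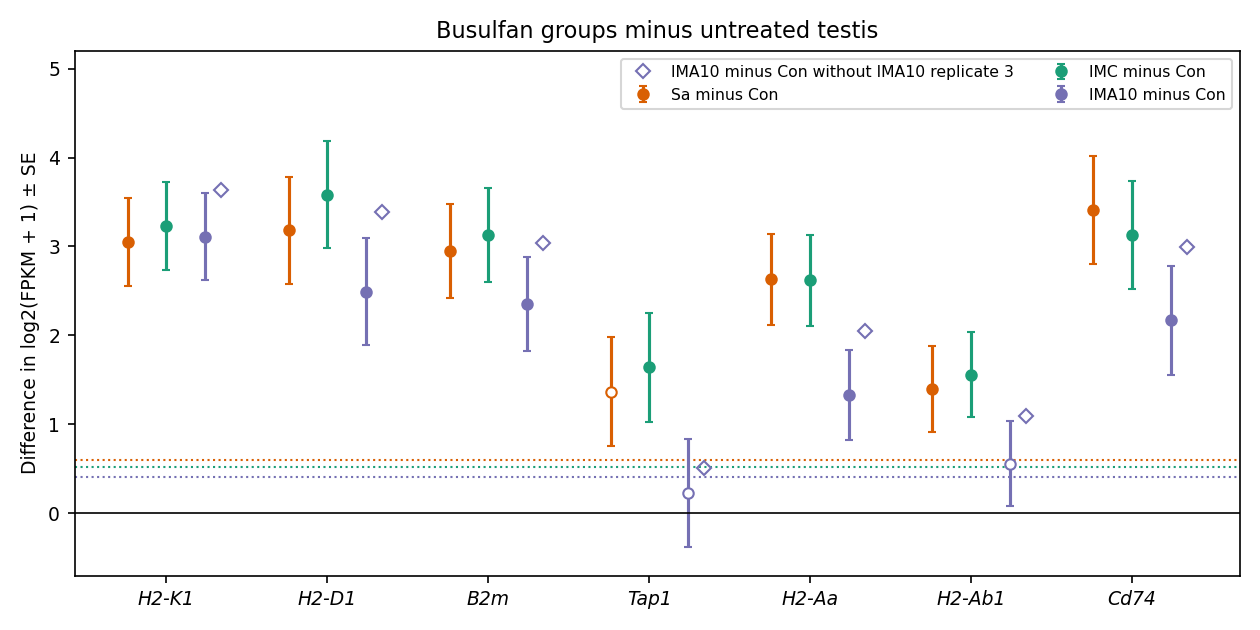
Difference of each busulfan group from untreated testis for the 7 tested genes, in log2(FPKM + 1) with its SE (filled where the limma adjusted p was under 0.05, open where it was not), and diamonds for IMA10 without its replicate 3. Dotted lines mark the medians of all genes tested (0.60, 0.52 and 0.41), and the differences of H2-K1, H2-D1, B2m and Cd74 lie above 2 in all 3 groups while Tap1 and H2-Ab1 lie closest to the dotted lines.

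The transplants themselves were compared within the busulfan groups, which addresses whether the donor's microbiota changed these genes. No member passed in IMC against Sa, IMA10 against Sa or IMA10 against IMC. Of all 15472 genes, 0 passed in these comparisons (0% higher and 0% lower in each), with 134, 928 and 328 at an unadjusted p under 0.05 in limma. For H2-K1 the differences were 0.18 (95% interval -0.90 to 1.26), 0.06 (-1.02 to 1.14) and -0.12 (-1.20 to 0.96), in that order. For Cd74 they were -0.28 (-1.63 to 1.08), -1.24 (-2.59 to 0.12) and -0.96 (-2.31 to 0.40). Without IMA10 replicate 3 the last 2 were -0.42 and -0.14 for Cd74 (limma adjusted p 0.393 and 0.841) and 0.59 and 0.41 for H2-K1 (adjusted p 0.271 and 0.549). The intervals are wide, so changes of several-fold in Cd74 lie within them.

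The class II chain H2-Aa had the smallest p of the 7 tested members in IMA10 against Sa. Its 3 IMA10 libraries (11.9, 15.0 and 2.19 FPKM) all lay below the 3 Sa libraries (18.5-23.2), as 7.17% of genes did (0.633% lay above). The difference was -1.30 ± 0.51 (limma unadjusted p 0.0277, adjusted p 0.713). Without IMA10 replicate 3 it was -0.58 ± 0.23 (adjusted p 0.0809), a fit in which 1136 genes of the whole table were higher and 3795 lower in IMA10 than in Sa. Against IMC, where the ranges overlapped, H2-Aa differed by -1.29 ± 0.51 (unadjusted p 0.0291, adjusted p 1 in limma), and by -0.56 (adjusted p 0.16) without that library.

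Tap1 was lower in every IMA10 library (0.54-3.17 FPKM) than in any IMC library (3.86-6.55 FPKM). This separation was found for 2.88% of genes (0.478% lay above), and the difference of -1.41 ± 0.61 did not pass (limma unadjusted p 0.042, adjusted p 1); it was -1.13 (adjusted p 0.314) without IMA10 replicate 3. H2-Eb1, at 0.04-0.36 FPKM in IMA10, lay below all 3 libraries of Sa (0.40-1.35) and of IMC (0.50-1.14). Of the genes tested, 7.17% lay below Sa and 2.88% below IMC in this way. No member separated IMC from Sa, where 3.32% of genes lay higher and 6.02% lower without overlap. The largest difference there was that of H2-D1, at 169-217 FPKM in IMC and 132-179 FPKM in Sa (0.40 ± 0.60, limma adjusted p 1).

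The other genes of the pathway are given from lists by function. Among class I heavy chains other than the members, the nonclassical and MHC-like molecules, 24 of 29 were in the table and 9 could be tested. Of these, 7 rose and none fell in Sa (median 1.83), 6 rose in IMC (1.73) and 7 in IMA10 (1.54). Over all genes tested, 52.0%, 50.8% and 47.7% rose in these 3 groups. Hfe, an MHC-like regulator of iron uptake, was at 3.49-3.99 FPKM in Con and at 31.8-48.3 FPKM in Sa (3.03 ± 0.51, limma adjusted p 0.000557). Fcgrt, the neonatal Fc receptor, rose by 2.79 ± 0.42 (adjusted p 0.000376) and H2-T10 by 2.05 ± 0.35 (adjusted p 0.000621) in Sa. B2m is the light chain of both Hfe and Fcgrt as well.

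Genes of peptide processing and loading for class I rose in 13 of 14 tested cases in Sa (median 1.94), 13 in IMC (2.11) and 11 in IMA10 (1.60, or 13 without IMA10 replicate 3), and none fell. These counts stand beside 52.0%, 50.8% and 47.7% of all genes tested that rose in Sa, IMC and IMA10. Under median-of-ratios scaling 9 of the 14 rose in each group, beside 5847, 6018 and 5620 of all 15472 genes. Calr, a chaperone of newly made heavy chains that also has many other clients, was the most abundant, at 333-347 FPKM in Con and at 798-892 FPKM in Sa (1.29 ± 0.17, limma adjusted p 0.000351). Psme1, a subunit of the proteasome activator PA28, rose by 2.98 ± 0.42 and the transcription factor Irf1 by 2.61 ± 0.37 (adjusted p 0.000361 for each). Nlrc5, the class I counterpart of Ciita, was listed at 0.08-0.64 FPKM over all 12 libraries and could not be tested. It was at 0.44-0.64 in Con and at 0.08-0.41 in the 9 busulfan libraries, all of them below the untreated ones. Of the genes tested, 31.3%, 33.2% and 18.1% lay below Con without overlap in Sa, IMC and IMA10.

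Of the other class II chains and processing genes, 8 of 10 tested rose in Sa (median 2.34), 8 in IMC (2.32, or 6 under median-of-ratios scaling) and 6 in IMA10 (1.71), and none fell, where 52.0%, 50.8% and 47.7% of all genes rose. The genes that rose most were lysosomal proteases and the thiol reductase Ifi30, which act in many cells besides antigen-presenting ones. Ctsl rose by 3.73 ± 0.54, Lgmn by 3.73 ± 0.52 and Ctsb by 3.61 ± 0.50 in Sa (limma adjusted p 0.000364, 0.000359 and 0.000358), and Ifi30 by 2.57 ± 0.27 (adjusted p 0.000197). The peptide editor H2-DMa did not rise, at 1.5-4.80 FPKM in Con and 1.81-4.60 in Sa (-0.19 ± 0.38, adjusted p 0.661). H2-DMb1 was listed at 0 in all 12 libraries and H2-DMb2 at 0 in 7 of them. The 9 factors that bind class II promoters or act there were all tested, and 7 rose in Sa (median 1.16, or 9 without IMA10 replicate 3), 6 in IMC (0.94, or 7 without that library) and 6 in IMA10 (0.76). Under median-of-ratios scaling 5, 5 and 4 of the 9 rose, beside 5847, 6018 and 5620 of all 15472 genes. With that scaling Rfxank fell in IMC (-0.39, limma adjusted p 0.0409) and Crebbp fell in IMA10 (-0.34, adjusted p 0.0383). These factors serve many other genes too. Nfyc, a subunit of NF-Y, rose by 1.51 ± 0.16 (adjusted p 0.000208), whereas Rfxank, a subunit of the RFX complex, differed by 0.37 ± 0.17 (adjusted p 0.0716) in limma, and by -0.28 (adjusted p 0.124) under median-of-ratios scaling.

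Interferon gamma is the classical inducer of both MHC classes. Its own transcript Ifng was listed at 0 in all 3 untreated libraries and at 0-0.26 FPKM after busulfan. Of 17 tested genes of its signalling and targets, 15 rose in Sa (median 2.09), 16 in IMC (2.07) and 14 in IMA10 (1.78, or 17 without IMA10 replicate 3), and none fell. Those with the smallest p were receptor and signalling components: the receptor chain Ifngr1 rose by 2.90 ± 0.39 (3.89-4.17 FPKM in Con, 34.0-39.7 in Sa, limma adjusted p 0.000352), the kinase Jak1 by 2.86 ± 0.40 and the inhibitor Socs1 by 1.06 ± 0.18 (adjusted p 0.000359 and 0.000553). Of the type I interferon targets, 6 of 6 tested rose in each of Sa (median 1.59), IMC (1.72) and IMA10 (1.5), among them Oasl2 by 2.17 ± 0.40 and Isg15 by 1.88 ± 0.34 in Sa (adjusted p 0.000806 and 0.000752). As for the members, these counts stand beside 52.0%, 50.8% and 47.7% of all genes that rose in Sa, IMC and IMA10.

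Markers of the cells that could carry MHC were read in the same libraries. The summed FPKM of 14 macrophage markers was 35.8-44.4 in Con, 247-362 in Sa, 281-445 in IMC and 84.5-339 in IMA10. Of these markers 13 could be tested and 13 rose in Sa, with a median of 2.44. The 3 with the smallest p were Lyz2 (3.22 ± 0.45), C1qc (3.13 ± 0.41) and Csf1r (2.59 ± 0.37, limma adjusted p 0.000358, 0.000351 and 0.000361). Other somatic cells moved with them: 12 of 12 Sertoli markers rose (median 3.47), 8 of 8 Leydig (3.36), 8 of 8 endothelial (1.93) and 6 of 6 peritubular myoid markers (2.48), while 12 of 12 late germ cell markers fell (-5.20). In Sa 52.0% of all genes tested rose and 19.2% fell, and the marker counts are to be read against that. The part of any of these cell types in the MHC differences was not tested.

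Lymphocyte markers did not move in 1 direction. Of 12 T and NK cell markers 2 could be tested, and both fell in Sa: Cd3d from 9.52-10.7 to 0.37-0.91 FPKM (-2.77 ± 0.36) and Cd247 from 4.97-6.11 to 0.69-1.38 FPKM (-1.77 ± 0.30; limma adjusted p 0.000351 and 0.000567). Of 8 B cell markers 2 could be tested, and Pax5 (-1.23 ± 0.16) and Fcrla (-1.39 ± 0.55) fell (adjusted p 0.00035 and 0.042). The lineage markers Cd3e, Cd8a, Cd79a and Ms4a1 stayed under 1 FPKM in all 12 libraries and could not be tested. Some untested markers, named after their values were seen, were higher in every Sa library than in any untreated one at these low levels. Cd3e was at 0.08-0.17 FPKM in Con and 0.22-0.53 in Sa, Cd3g at 0-0.06 and 0.13-0.70, Cd8a at 0-0.02 and 0.06-0.22, and Cd79b, a chain of the B cell receptor complex, at 0-0.05 and 0.1-0.25. Nkg7, of cytotoxic lymphocytes, was listed at 0 in Con and was at 0.08-0.58 in Sa. Other untested markers of these lists were lower in every Sa library than in any untreated one. Cd8b1 was at 0.51-0.84 FPKM in Con and 0.05-0.13 in Sa, and Cr2 at 0.13-0.29 and 0.01-0.02. Of all genes tested, 56.9% lay higher and 31.3% lower in Sa without overlap, and 19.2% fell in the fit. Of 9 dendritic cell markers 3 could be tested. Itgax rose by 1.52 ± 0.47 (adjusted p 0.0147), and Flt3 (-0.22 ± 0.24, adjusted p 0.401) and Zbtb46 (-0.20 ± 0.15, adjusted p 0.233) did not pass, though both were lower under median-of-ratios scaling (-0.68 and -0.86, adjusted p 0.029 and 0.0013), while Xcr1 and Clec9a stayed under 1 FPKM.

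Set against the mean of the untreated libraries, the summed members stood at 6.96-9.52 times in Sa, 7.35-10.9 in IMC and 2.18-11.1 in IMA10. The macrophage sum stood at 6.23-9.15 in Sa, the peritubular myoid sum at 6.49-9.52 and the Leydig sum at 6.9-13.8. The endothelial sum was at 3.93-6.11 and the Sertoli sum at 15.9-19.6. Markers shared by all leukocytes summed to 11-16.2 times. In the Sa fit 5 of their 5 tested genes rose (median 2.76), beside 52.0% of all genes. Per unit of macrophage marker, B2m ran from 0.422 to 0.689 in Con, 0.463 to 0.624 in Sa, 0.49 to 0.635 in IMC and 0.504 to 0.747 in IMA10. Cd74 was at 0.162-0.315 in Con, 0.283-0.345 in Sa, 0.196-0.323 in IMC and 0.153-0.315 in IMA10. The ranges of these ratios overlapped between all groups for both genes, but not for every member. H2-Aa per macrophage marker was 0.0259-0.0493 in IMA10, below every Sa (0.0528-0.0942) and IMC (0.0495-0.0768) library and overlapping with Con (0.0487-0.0768). H2-D1 was 0.468-0.63 in IMC, above every Con library (0.338-0.45), with 0.366-0.562 in Sa and 0.301-0.862 in IMA10. H2-K1 per macrophage marker was 0.233-0.555 in Con, 0.327-0.478 in Sa and 0.393-0.449 in IMC, and 0.663, 0.715 and 0.765 in the 3 IMA10 libraries. Those 3 values lay above all other libraries, replicate 3 included, and these ratios were singled out after their values were seen. The macrophage sum they are divided by was 84.5-339 FPKM in IMA10, 247-362 in Sa and 281-445 in IMC. The share of all genes that separate in this way was not computed, so these separations have no background to be read against.

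**Figure D3:**
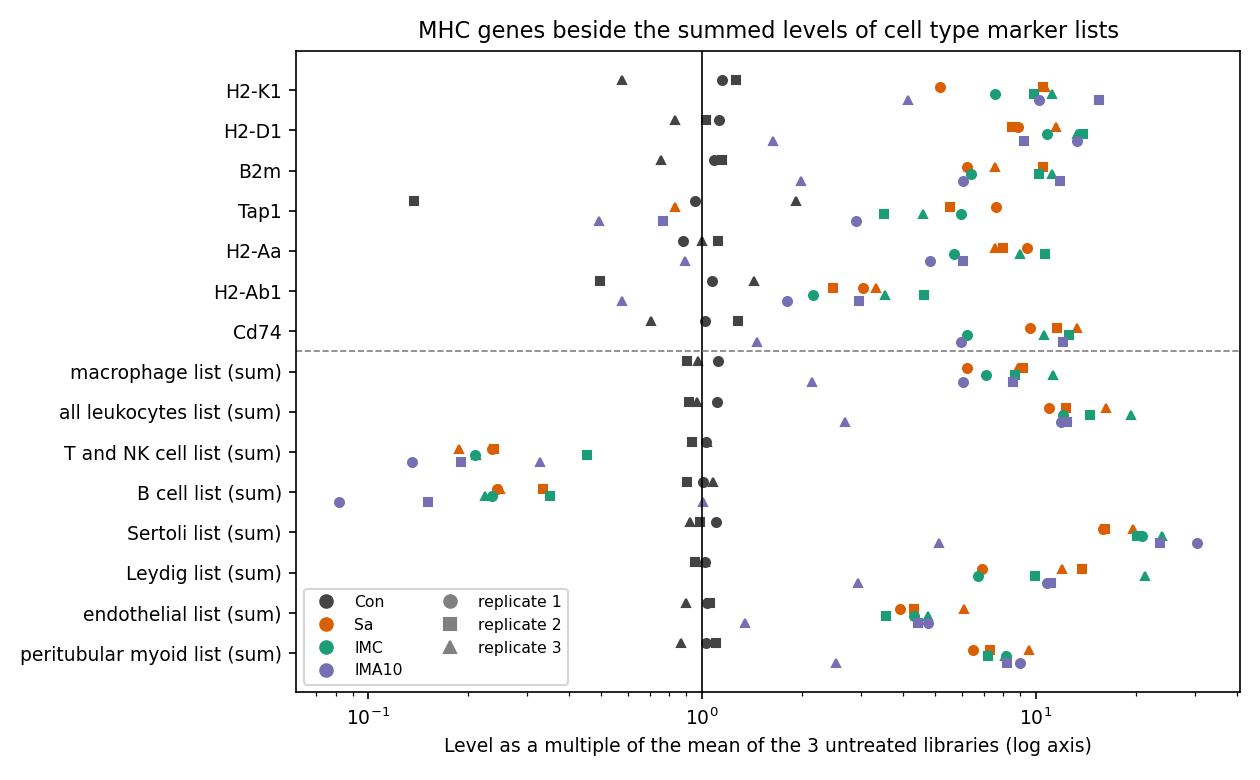
Each tested gene (above the dashed line) and the summed FPKM of each marker list (below it), as a multiple of the mean of the 3 untreated libraries on a log axis, 1 point per library. The MHC genes other than Tap1 and H2-Ab1 lie between about 4 and 16 in the busulfan libraries other than IMA10 replicate 3 (purple triangle). The macrophage and peritubular myoid sums do so too, and Sertoli sums lie higher. The T and NK cell and B cell sums lie below 1 apart from the B cell sum of IMA10 replicate 3. In the untreated libraries Cd3d and Cd247 made up most of the T and NK cell sum, and Fcrla and Pax5 most of the B cell sum. The other markers of these lists were under 1 FPKM there and did not move in 1 direction.

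Within the busulfan libraries the members did not vary as 1 block. Over these 9 libraries, in log2(FPKM + 1), Cd74 correlated with H2-Aa at r = 0.95, with H2-Ab1 at 0.95, with B2m at 0.94 and with Ciita at 0.91. Tap1 correlated with Cd74 at 0.34 and with H2-K1 at -0.09, and H2-Eb1 with Cd74 at 0.07 and with H2-K1 at -0.51, while Tap1 and H2-Eb1 correlated with each other at 0.80. These are descriptions: the 9 points of each correlation are the same libraries, and IMA10 replicate 3 is low for most members. H2-K1 over H2-D1 ran from 0.582 in Sa replicate 1 to 2.54 in IMA10 replicate 3, with 0.69-1.23 in Con, 0.70-0.841 in IMC and 0.77-2.54 in IMA10.

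The genes most like the members were sought among 10233 genes with a mean of at least 5 FPKM in the busulfan libraries. The mean of the class II members H2-Aa, H2-Ab1, H2-Eb1 and Cd74 was closest to Ipmk (r = 0.98), Ctps, BGI_novel_G001233, Phldb1 and Nudt5 (0.97 each). The mean of the class I members was closest to Atg5 (0.98), Clec3b, Pex7, Shisa5 and Stoml2 (0.97 each). These likenesses rested in part on 1 library: without IMA10 replicate 3 they were 0.81-0.86 for the first set and 0.58-0.73 for the second.

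Tap1 and H2-Eb1 followed a further pattern, which was noticed after the values were seen and is given without a test. Tap1 was under 1 FPKM in Sa replicate 3, IMA10 replicates 2 and 3 and Con replicate 2. H2-Ea, the alpha chain that pairs with H2-Eb1, was at 16.5, 12.5 and 0.78 FPKM in the 3 Sa libraries, 6.52, 6.37 and 3.89 in IMC, and 1.77, 0.82 and 0.65 in IMA10. It was low in the same 3 busulfan libraries as Tap1. H2-Ob, a chain of the peptide editing inhibitor H2-O, was at 2.41, 1.30 and 0.15 FPKM in Sa and at 0.59, 0.31 and 0.30 in IMA10. Over the 9 busulfan libraries Tap1 correlated with H2-Ob and H2-Ea at 0.93 each, ranks 2 and 3 of 15470 genes. Psmb9, a subunit of the immunoproteasome whose gene lies beside Tap1, was at 0.23 FPKM in Sa replicate 3 against 4.41 and 4.09 in the other Sa libraries. It did not share the low values of IMA10, where it was at 2.09, 1.16 and 1.52 FPKM beside 2.09, 1.86 and 1.42 in IMC.

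The same libraries stood out for genes of other functions in the same stretch of chromosome 17. Rps28, a ribosomal protein gene that lies on the far side of H2-K1, was at 406, 193 and 5.96 FPKM in Sa, 175, 148 and 99.4 in IMC, 66.3, 3.15 and 21.1 in IMA10, and 141, 12.6 and 334 in Con. It correlated with Tap1 at 0.93 over the busulfan libraries and at 0.98 without IMA10 replicate 3. Daxx, a histone chaperone gene close by, went the opposite way, at 5.08, 16.9 and 17.6 FPKM in Sa and at 5.95, 23.1 and 35.7 in IMA10 (r = -0.81 with Tap1). Not all genes there did so: Tap2 was at 9.15, 7.98 and 8.16 FPKM in Sa, Psmb8 at 7.01, 3.77 and 3.95, and H2-Aa and H2-Ab1 showed no drop in Sa replicate 3. Because mice of this stock carry different haplotypes of the region and the labels name none, the part of allele differences in the values of Tap1, H2-Eb1 and these neighbours was not tested.

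**Figure D4:**
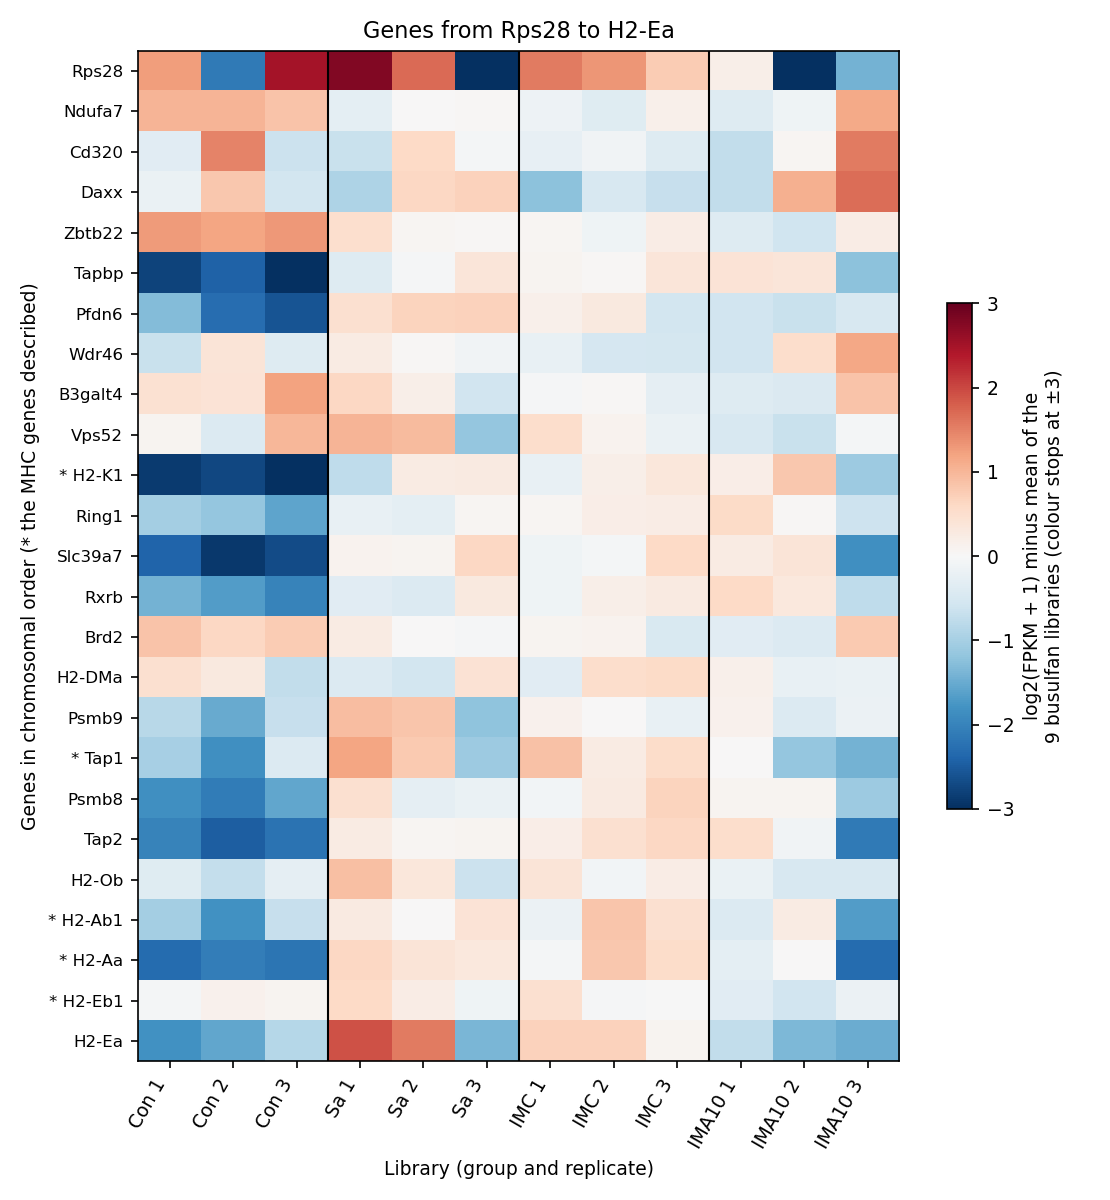
Log2(FPKM + 1) of 25 genes in chromosomal order from Rps28 to H2-Ea, 1 row per gene and 1 column per library, less the mean of the 9 busulfan libraries (colour stops at 3 either way, and asterisks mark the genes described). Rps28, Vps52, Psmb9, Tap1, H2-Ob and H2-Ea are blue in Sa replicate 3 and red in Sa replicate 1, while Tap2, H2-Ab1 and H2-Aa stay within 1 of the mean in both, and H2-K1, H2-Aa and Tapbp are blue in all 3 untreated libraries.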

How the data were processed

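RNA of 12 testis libraries was measured by RNA sequencing, and the authors deposited 1 table of FPKM values with 2 decimals, 1 column per library, per the file headers. The aligner, the counting program, the build and the annotation were not given in the sources used here. Because FPKM gives no read counts, and no whole-read steps could be recovered from low values, the depth is unknown and no counting interval is given. Summed FPKM was 569055-576093 in the untreated libraries and 476127-519355 in the others, and 12726-14474 genes per library reached 1 FPKM. Of the 22221 rows, 20141 matched a symbol by NCBI identifier.

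Columns were matched to samples by the names in the sample descriptions. The 15472 rows that reached 1 FPKM in 3 or more libraries were fitted as log2(FPKM + 1) with limma 3.58.1 (R 4.3.3, with a mean-variance trend), 1 mean per group, all 12 libraries, and Benjamini-Hochberg adjustment over all rows tested. The 2 members that the filter removed (H2-Eb1 and Ciita) were compared by exact permutation of libraries. The fit was tested on simulated data. Alternatives were another scaling (median-of-ratios, quantile), a pseudocount of 0.1, no filter, a filter of 5 FPKM, only the groups compared, a replicate block, array weights, and each library left out in turn. Promoters came from RefSeq (GRCm38.p6), shared 50-base windows from GENCODE M21 transcripts, and gene order from RefSeq. Python 3.11.15 was used with pandas 2.3.3 and numpy 2.4.6.

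The members and all gene lists were chosen with earlier results of these data known. Genes named from a list are its most abundant one and up to 3 with the smallest p in Sa against Con; all others were named after their values were seen.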

Additional observations from a re-analysis of the deposited data

How the results depend on the processing

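Across 20 alternatives the count of members that rose ran from 5 to 7 in Sa against Con, 5 to 8 in IMC against Con and 3 to 6 in IMA10 against Con. The value of 3 in IMA10 came from fitting only the groups compared, where H2-Aa (adjusted p 0.115) and Cd74 (adjusted p 0.0548) no longer passed. No member fell against Con and none passed between busulfan groups in any alternative run. The replicate numbers are not stated to pair libraries, and deviations of same-numbered libraries correlated at -0.77 to 0.55; with the replicate number as a block the members' counts were 6, 7 and 5, as without it. The counts over all genes moved by more than 1.5 times in several cases. Genes lower in Sa than in Con numbered 6069 under median-of-ratios scaling, 5024 with array weights, 4765 with only the groups compared, 4648 without IMA10 replicate 3 and 4486 under quantile normalization, against 2963. In IMC against Con the split was 6018 higher and 6302 lower, and in IMA10 against Con 5620 and 5817, under median-of-ratios scaling. Genes lower in IMC than in Con numbered 2246 without IMC replicate 3, against 3603. Genes lower in IMA10 than in Con numbered 1834 with only the groups compared, 2209 without IMA10 replicate 1 and 2177 without IMA10 replicate 2, against 3694. Array weights gave 1242 higher and 4173 lower genes in IMA10 against Sa and 63 and 1055 against IMC.

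The directions that turned were of differences that had not passed, up to -0.96 for Cd74 in IMA10 against IMC, and the cause was not tested. Under median-of-ratios scaling Tap1 was at -0.06 in IMA10 against Con, H2-Aa at 0.06 in IMC against Sa and H2-K1 at 0.02 in IMA10 against IMC. Under quantile normalization H2-Aa was at 0.05 in IMC against Sa and H2-K1 at -0.05 in IMA10 against Sa. With array weights H2-K1 was at -0.12 and B2m at -0.18 in IMC against Sa. With the same weights H2-D1 and B2m were at 0.12 and H2-Ab1 at 0.02 in IMA10 against Sa, and H2-K1 was at 0.67, B2m at 0.30 and Cd74 at 0.23 in IMA10 against IMC. Leaving out 1 library at a time gave -0.20 to 0.57 for Tap1 in IMA10 against Con. In IMC against Sa it gave -0.17 to 0.36 for H2-K1, -0.42 to 0.72 for Tap1, -0.20 to 0.23 for H2-Aa, -0.07 to 0.43 for H2-Ab1 and -0.48 to 0.01 for Cd74. In IMA10 against Sa it gave -0.35 to 0.59 for H2-K1, -1.28 to 0.21 for H2-D1 and -1.18 to 0.09 for B2m, and in IMA10 against IMC -0.53 to 0.41 for H2-K1. With 3 libraries a group, a wide spread in IMA10 and no depth in the files, differences as large as -1.41 (Tap1 in IMA10 against IMC) did not pass between busulfan groups.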
